A study of Bos taurus and Sus scrofa with 6 samples.

Results

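In the scRNA-seq libraries of prepubertal cattle testes, 390 of the 18504 barcodes over the UMI minimum were germ cells with meiotic gene UMIs, called members here. A unique molecular identifier (UMI) marks 1 captured RNA molecule, so that PCR copies are counted once. The members were chosen by their own counts. A barcode was selected when at least 2 of 8 germ cell genes (DDX4, DAZL, MAEL, TDRD1, TDRD9, RNF17, MOV10L1, TKTL1) and at least 2 of 8 meiotic genes (SYCP1, SYCP2, SYCP3, SMC1B, STAG3, HORMAD1, DMC1, MEIOB) had a UMI. In all, 553 barcodes met the germ cell condition, and the 163 of them with 0 or 1 meiotic gene are called other germ barcodes. The 17951 barcodes that did not meet the germ cell condition are called remaining barcodes. Members numbered 20, 156 and 214 in cattle 1, 2 and 3.

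The testes came from Holstein bull calves aged 4.5 months and were removed by castration. Parenchyma was digested with trypsin and collagenase, live cells were loaded without sorting, and 1 library was made per animal. The labels give no treatment, and the numbers of cattle 1, 2 and 3 are names. The labels give the same testis number to 2 libraries with different animal tags, and the methods count 3 cattle. The libraries held 5805223, 27409347 and 53325608 UMIs, and the UMI minimum for a barcode was 460, 972 and 2644. This minimum is the 99th percentile of the 3000 largest totals divided by 10.

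Male germ cells begin as spermatogonia, which divide by mitosis, and enter meiosis as spermatocytes. In the first meiotic prophase the cohesin-bound chromosome axes, which carry proteins such as SYCP2, SYCP3 and HORMAD1, are joined along their length by the synaptonemal complex, whose central part contains SYCP1. DNA breaks are made and repaired on these axes, with the strand exchange protein DMC1 acting in the repair. Some of these genes are transcribed in spermatogonia before meiosis begins, so a UMI of a meiotic gene does not place a cell in meiosis.

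The libraries stood apart in depth before any gene was compared. Members held 87714, 1087581 and 3814019 UMIs in cattle 1, 2 and 3, so that 3 UMIs, the limit that a count of 0 allows, correspond to 34.2, 2.76 and 0.787 CPM, the UMIs of a gene per 1000000 UMIs of the sum. Their median depth was 4677.5, 7038.5 and 17274.5 UMIs, against 3693, 3471.5 and 4762 in other germ barcodes and 786, 1697 and 4459 in remaining barcodes. Members were the deeper class in every library. They detected a median of 2119.5, 2659 and 4248.5 genes. Mitochondrial genes took 1.49%, 3.91% and 5.06% of member UMIs, against 1.40%, 4.70% and 5.70% in other germ barcodes. In cattle 3 a single member held 178182 UMIs, 4.18 times the next deepest, and made up 4.67% of the member UMIs of that animal. It is described on its own below, and the cattle 3 level of a gene is given again without it where it moved that level by over 1.5 times. Of the member barcode sequences, 7 also occurred over the minimum in another library of the series, and 0 of these were members in both.

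The genes that chose the members are given as a description. DDX4, a germ cell RNA helicase, was at 68.4, 76.3 and 89.4 CPM in members of cattle 1, 2 and 3, and at 0.503 ± 0.449 CPM (SD, n = 3) in remaining barcodes. DAZL, an RNA-binding translation regulator, was at 330.6, 350.3 and 326.7 CPM in members and at 2.18 ± 0.263 CPM in remaining barcodes. In other germ barcodes DAZL was at 368.5, 345.5 and 284.2 CPM. TKTL1, a transketolase-like enzyme, was at 583.2 ± 131.0 CPM in members and 503.0 ± 161.6 CPM in other germ barcodes. SYCP1, of the central synaptonemal complex, was at 216.6, 263.9 and 247.5 CPM in members, at 56.3, 129.1 and 39.5 CPM in other germ barcodes and at 0.956 ± 0.580 CPM in remaining barcodes. SMC1B, a cohesin subunit of meiosis, was at 319.2, 251.9 and 207.7 CPM in members and at 92.1, 118.7 and 43.4 CPM in other germ barcodes. STAG3, a second meiotic cohesin subunit, was at 125.4, 69.9 and 88.6 CPM in members. DDX4, DAZL, SYCP1 and SMC1B, the 4 marker genes of the class, are all among the rule genes, so these levels follow from the selection.

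**Figure D1:**
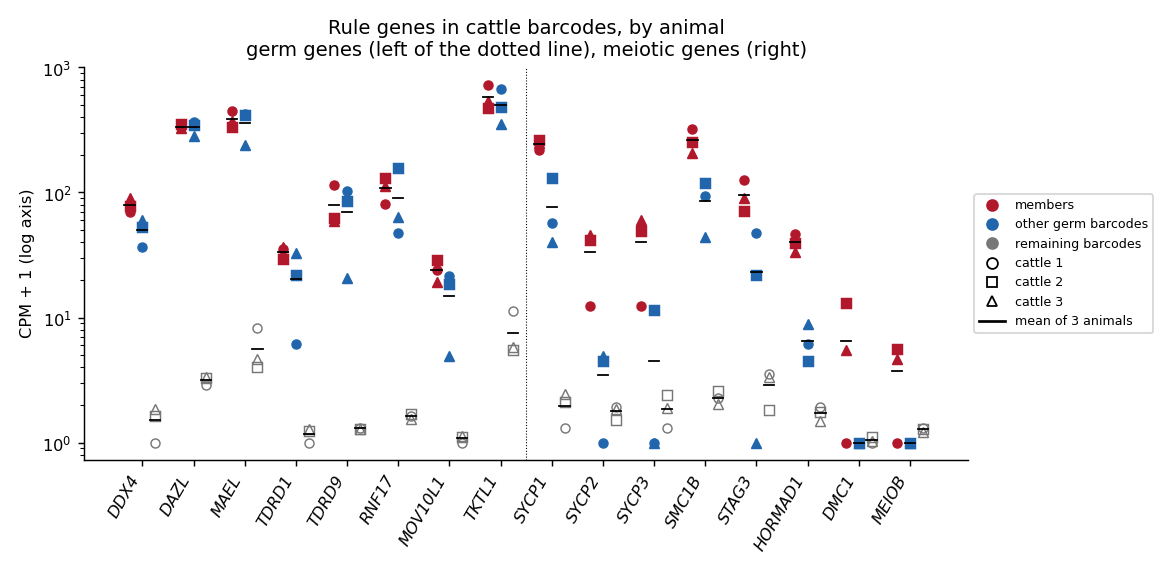
Level of the 16 rule genes as CPM + 1 on a log axis, with 1 symbol per animal and the mean of 3 animals as a bar, in members, other germ barcodes and remaining barcodes. The 8 germ cell genes lie above the remaining barcodes in both germ classes, and DMC1 and MEIOB lie near the bottom of the axis in members.

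The meiotic genes were not seen in equal numbers of members. SYCP1 had a UMI in 339 of 390 members, SMC1B in 333, STAG3 in 203, SYCP3 in 163, SYCP2 in 146 and HORMAD1 in 122. DMC1 had a UMI in 27 members and MEIOB, which acts with it in break repair, in 14. DMC1 was at 0 in cattle 1, 11.95 CPM in cattle 2 and 4.46 CPM in cattle 3, and MEIOB was at 0, 4.60 and 3.67 CPM, the last being 2.20 CPM without the deepest barcode. The 0 in cattle 1 is under the limit of 34.2 CPM that the depth of this animal allows. SYCP2 was at 11.4, 40.5 and 45.1 CPM and SYCP3, the main axis protein, at 11.4, 47.8 and 59.3 CPM, with cattle 1 lowest and its values resting on 1 UMI each. HORMAD1 was at 45.6, 38.6 and 32.2 CPM. In remaining barcodes 15 of 17951 had UMIs of at least 2 meiotic genes.

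At the threshold of the rule, 119 members had UMIs of exactly 2 meiotic genes, and 99 other germ barcodes had exactly 1 and 64 had 0. The members had a median of 3 meiotic and 5 germ cell genes. Members with more than 6 meiotic genes numbered 3, and 0 had all 8.

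Over the 3 animals together, the share of germ barcodes that were members was higher at greater depth. Of germ barcodes with fewer than 2000 UMIs, 23.3% were members (exact 95% interval 9.93 to 42.3). The share was 44.1% from 2000 to 5000 UMIs, 73.4% from 5000 to 10000, 95.05% from 10000 to 20000 and 98.8% above that. These bins pool animals that differed. From 2000 to 5000 UMIs the share was 30.6%, 47.2% and 50% in cattle 1, 2 and 3, and from 5000 to 10000 UMIs it was 30.8%, 84.7% and 70.2%. Cattle 1 thus showed no rise between these bins, and it had 0 germ barcodes above them, as cattle 2 had above 20000 UMIs. By animal, 27.8%, 69.0% and 83.9% of germ barcodes were members (mean 60.2% ± 29.1, SD, n = 3), in the order of library depth. When every germ barcode with enough UMIs was thinned to 2000 UMIs, which left out 10, 20 and 0 barcodes, the shares were 8.06%, 19.9% and 22.7% (mean 16.9% ± 7.79). A thinned barcode counted as a member only if it still met both conditions. The shares are of germ barcodes found at full depth, so the fall covers loss of either condition. The exact intervals were 2.67% to 17.8% in cattle 1, 14.7% to 26.0% in cattle 2 and 17.7% to 28.4% in cattle 3, so that all 3 overlapped, cattle 1 and 3 only just. Intervals cover counting error only. At equal depth 41.9%, 72.8% and 66.3% of germ barcodes had a UMI of at least 1 meiotic gene.

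**Figure D2:**
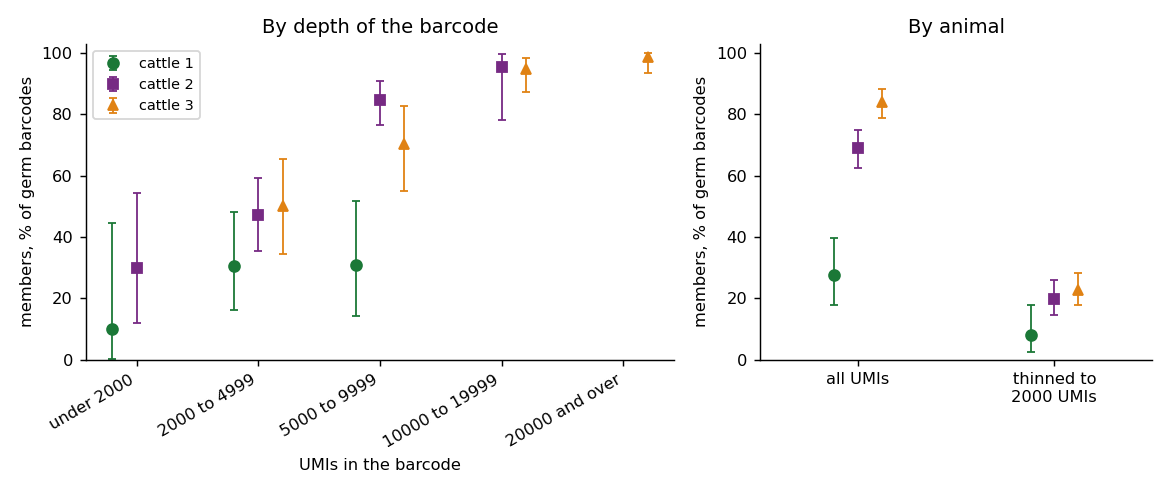
Members as a percentage of germ barcodes by depth of the barcode, with 1 symbol per animal (left) and by animal with all UMIs and after thinning to 2000 UMIs (right), with exact 95% binomial intervals. The share reaches 98.8% in the deepest barcodes, all of cattle 3, while cattle 1 is at 30.8% in its deepest bin, and the 3 animals lie between 8.06% and 22.7% at equal depth.

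To give the level of a meiotic gene that had not chosen the barcodes, each meiotic gene was left out of the rule in turn and the barcodes were chosen on the other 7. SMC1B was then at 279.8, 226.2 and 205.7 CPM in the chosen barcodes and at 149.3, 221.6 and 126.5 CPM in the other germ barcodes, higher in 3 of 3 animals but almost level in cattle 2. In cattle 1 its value rested on 8 UMIs of 6 barcodes. SYCP1 was at 198.0 ± 94.95 CPM in chosen and 148.7 ± 53.2 CPM in other germ barcodes, higher in 2 of 3 animals, and STAG3 at 64.3 ± 20.3 and 60.4 ± 17.9 CPM, higher in 1 of 3. Of the 8 left-out genes 1, SMC1B, was higher in 3 of 3 animals. Within the middle 50% of member depth 3 of 8 were, SYCP2, STAG3 and HORMAD1. In cattle 1 these rested on 1 UMI against 0, 3 against 11 and 1 against 1 in chosen and other germ barcodes. SMC1B was not among these 3 genes. Without barcodes carrying somatic markers 0 of 8 were higher in 3 of 3 animals. In that setting cattle 1 kept 6 members with 18354 UMIs, too few for the count to decide anything.

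Members were next compared with other germ barcodes over all genes outside the rule, by edgeR's quasi-likelihood test on UMI sums per animal (6 sums, Benjamini-Hochberg adjustment). Of 11755 genes tested, 0 (0%) passed an adjusted p of 0.05. At an unadjusted p under 0.05 there were 571 genes, and DESeq2 called 0 with 289 at an unadjusted p under 0.05. The 2 sums of an animal come from 1 library and their deviations correlated by 0.327, 0.316 and 0.152, so the fit was repeated with the animal as a replicate block. In the paired fit 18 genes (0.153% of those tested) were higher and 170 (1.45%) lower in members. With the animal as a block and without the deepest barcode these counts were 0 and 181, and in the middle 50% of member depth 0 and 10. Without a block, leaving out cattle 2 gave 12 higher and 40 lower.

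The 18 genes higher in members in the paired fit came mostly from 1 barcode: in 16 of them the deepest barcode of cattle 3 held at least 50% of all member UMIs. CETN1, a centrin of the testis, had the smallest adjusted p of the 18 and 624 of its cattle 3 member UMIs in that barcode and 6 in the other 213 members. Without the barcode 13 of the 18 reached the count minimum and 0 of these were called, and 5 were not tested. ADAD1, a germ cell protein related to RNA-editing enzymes, was 1 of the 2 genes not carried by the deepest barcode. It was at 91.2, 105.7 and 142.1 CPM in members and 38.5 ± 23.1 CPM in other germ barcodes, and at 92.4 CPM in cattle 3 without the deepest barcode. Its log2 fold change was 1.56 in the paired edgeR fit (adjusted p = 0.0131) and 1.37 without that barcode (adjusted p = 0.0597). DNAJB1, a heat shock co-chaperone, was the other, at 388.4 ± 36.4 CPM against 201.7 ± 82.4 CPM and a log2 fold change of 0.93 in the paired edgeR fit (adjusted p = 0.0466), which was 0.74 without the deepest barcode (adjusted p = 0.249). Both genes were higher in 3 of 3 animals.

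The 170 genes lower in members in the paired fit included 9 of the 38 somatic marker genes tested, where 1.45% of all genes were lower, and all 170 were also called without the deepest barcode. ACTA2, the smooth muscle actin of peritubular myoid cells, was at 353.4, 66.2 and 119.3 CPM in members and at 327.6, 237.3 and 1756.3 CPM in other germ barcodes. It was lower in members in 2 of 3 animals, and the value of cattle 3 stood above the other animals. DCN, a proteoglycan of stromal cells, was at 193.8, 120.5 and 114.3 CPM in members and 204.7, 244.3 and 1049.9 CPM in other germ barcodes. IFITM3, an interferon-induced membrane protein, and MGP, a matrix protein, were lower in 3 of 3 animals. Summed over 8 myoid and stromal markers, other germ barcodes held 808.6, 774.7 and 3935.0 CPM and members 877.9, 319.1 and 372.8 CPM. The Sertoli markers summed to 829.1, 746.8 and 2372.1 CPM in other germ barcodes and 980.5, 556.3 and 555.3 CPM in members. The other germ barcodes of cattle 3 held the highest sums of both lists among the germ classes, and the part of such RNA in the 170 genes was not tested.

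Against other germ barcodes, 0 genes of any list passed the edgeR test without a block. Recombination genes, summed over 23 genes of the table, were at 1060.3, 1219.2 and 1234.9 CPM in members and 870.1, 1214.5 and 599.9 CPM in other germ barcodes. The piRNA pathway genes, which silence transposons in germ cells, were at 1425.1, 1362.7 and 1339.5 CPM and at 1545.6, 1385.5 and 686.8 CPM. Cattle 3 was the lowest of the other germ barcodes in both lists.

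The deepest barcode of cattle 3 held 7908 genes and had UMIs of 6 germ cell and 6 meiotic rule genes, but its leading genes differed from those of the other members of that animal. H3F3C, a histone H3 gene with near-identical copies and so of uncertain count, had 662 UMIs in it and 15 in the other 213 members together, and RPL10L, an autosomal copy of the X-linked ribosomal protein gene RPL10 used in spermatocytes, had 240 and 0. PDHA2, the testis form of a pyruvate dehydrogenase subunit, had 83 and 0, and YBX2, an RNA-binding protein of meiotic and haploid germ cells, had 270 and 44. LDHC, the lactate dehydrogenase of spermatocytes and sperm, had 433 and 230, and CLGN, a testis chaperone, 527 and 896. The genes of the list for pachytene and later spermatocytes summed to 7071 CPM in this barcode and 754.4 CPM in the others, and genes of telomere attachment in meiosis, led by TERB2 with 63 of its 111 UMIs in cattle 3 members, to 600.5 and 32.5 CPM. Synaptonemal complex and axis genes outside the rule summed to 2273 and 288.2 CPM. Not all lists of meiosis were higher in this barcode. Recombination genes summed to 667.9 CPM in it and 1263 CPM in the others, and meiotic entry genes to 140.3 and 253.3 CPM. The 8 meiotic rule genes summed to 420.9 and 701.6 CPM. These 8 genes chose the members, and a shallower barcode meets the rule only at a higher CPM, so this difference follows in part from the selection. Genes of undifferentiated spermatogonia summed to 331.1 and 1867 CPM. There were 13 genes with at least 20 UMIs in this barcode and 0 in the other cattle 3 members. PRM2, a protamine, had 12 UMIs and ACR, the acrosin gene, 10, and PRM1 had 0. CD14, a macrophage marker, had 86 UMIs here and 4 in the other members of cattle 3. The other macrophage markers did not go with it, with C1QA at 7 UMIs here and 272 in those members and C1QB at 8 and 143. The barcode sequence was over the minimum in 0 other libraries. Being 1 barcode, it has no replicate.

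**Figure D3:**
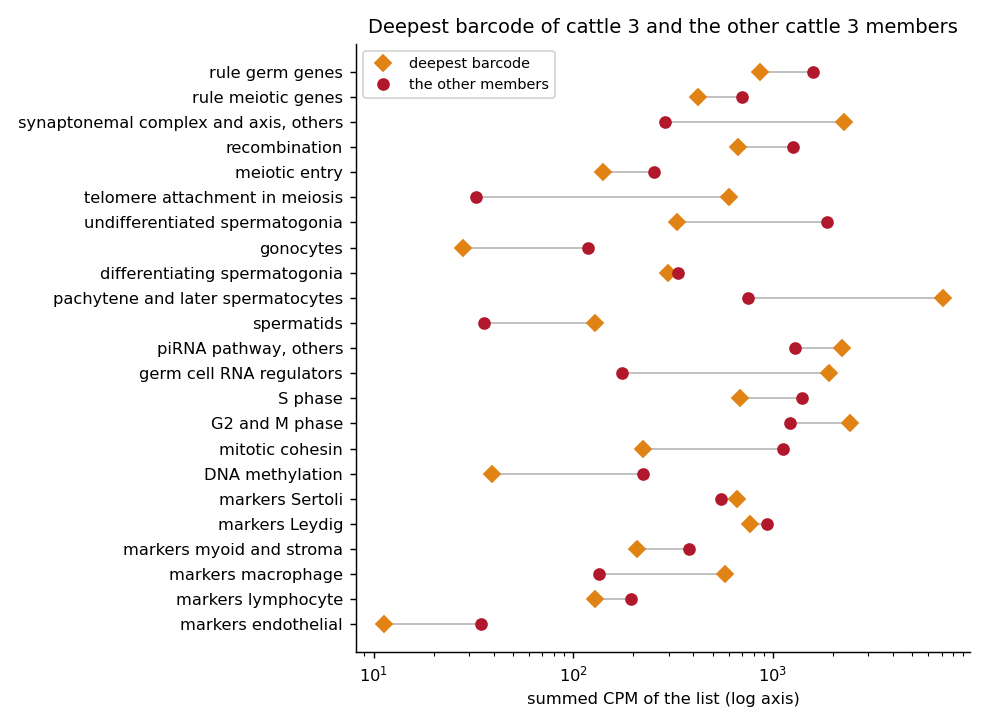
Summed CPM of the genes of each list on a log axis in the deepest barcode of cattle 3 (diamonds) and in the other 213 members of that animal together (circles). The lists for pachytene and later spermatocytes and for telomere attachment lie to the right in the deepest barcode, and those for undifferentiated spermatogonia, recombination and meiotic entry to the left.

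For the genes that members carried beside those of the rule, members were compared with remaining barcodes by the same edgeR test. The barcodes were selected on germ cell genes, so that a higher level of further germ cell genes describes what goes with the rule. Of 14207 genes tested, 3157 (22.2%) were higher and 3704 (26.1%) lower in members, at an adjusted p of 0.05. This split depended on the scaling. With library size alone in place of TMM, 6116 were higher and 1810 lower, and the median log2 fold change of all genes moved by 1.09, from -0.20 to 0.88. Without barcodes carrying somatic markers there were 1905 higher and 3157 lower, without cattle 2 there were 1682 and 2060, and without cattle 3 1281 and 1958. A gene tested here needed at least 10 UMIs over the 6 sums. Some genes are on more than 1 list, such as PIWIL4, TEX15 and NANOS3.

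Further synaptonemal complex and axis genes were higher in members in 7 of 9 cases. SYCE3, of the central element, was at 239.4, 83.7 and 73.9 CPM in members and under 1 CPM in remaining barcodes of all 3 animals, and rose by a log2 fold change of 6.34 ± 0.50 (SE, edgeR adjusted p = 1.35e-05). The deepest barcode held 126 of its 282 UMIs in cattle 3 members, and without it the level there was 42.9 CPM. SYCE1, its partner in the central element, was at 57.0, 41.4 and 65.0 CPM, or 41.8 CPM in cattle 3 without the deepest barcode (log2 fold change 5.54 ± 0.43). TEX12, also of the central element, was at 45.6, 158.1 and 144.5 CPM (log2 fold change 3.54 ± 0.42), with cattle 1 lowest. REC8, the meiotic kleisin of cohesin, was at 0, 23.9 and 14.2 CPM and HORMAD2 at 34.2, 1.84 and 6.03 CPM, the last being 2.48 CPM without the deepest barcode. SYCE1L was at 45.6, 17.5 and 19.9 CPM in members and 34.1, 43.6 and 15.6 CPM in remaining barcodes, so that its CPM was higher in 2 of 3 animals. With TMM it was called lower, at a log2 fold change of -1.65, and with library size alone it was not called.

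Recombination genes were higher in 15 of 20 cases, and 0 were lower. MND1, which with PSMC3IP assists strand exchange, was at 114.0, 226.2 and 251.4 CPM in members and 7.27 ± 1.46 CPM in remaining barcodes (log2 fold change 3.70 ± 0.37, edgeR adjusted p = 3.84e-05). ZCWPW1, a reader of the histone marks set at break sites, was at 228.0, 170.1 and 199.3 CPM (log2 fold change 3.01 ± 0.28). SPATA22, which acts with MEIOB, was at 79.8, 46.0 and 56.6 CPM. SPO11, which makes the breaks, was at 0, 1.84 and 6.03 CPM, with 0 UMIs in cattle 1. PRDM9, which places the breaks, was at 0, 2.76 and 3.93 CPM against 1.88, 1.99 and 3.71 CPM in remaining barcodes and was not called (adjusted p = 0.349), and neither were MSH4, MSH5, MLH3 and HFM1.

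Of meiotic entry genes 4 of 5 were higher. RBM46, an RNA-binding partner of MEIOC and YTHDC2, was at 114.0, 149.9 and 159.4 CPM and rose by a log2 fold change of 5.91 ± 0.41. STRA8, the retinoic acid responsive gene that opens meiotic entry, was at 34.2, 90.1 and 43.8 CPM against 9.38, 13.2 and 7.81 CPM (log2 fold change 1.44 ± 0.39, edgeR adjusted p = 0.0108). MEIOC, which holds cells in prophase, was at 0, 10.1 and 7.08 CPM, and YTHDC2 was not called. The telomere attachment genes were higher in 5 of 5 cases and in 4 without the deepest barcode. CCDC155, 1 of the 5, was at 0, 0.919 and 3.41 CPM, and its log2 fold change of 2.20 turned to -4.24 without barcodes carrying somatic markers. TERB2 was at 34.2, 12.9 and 29.1 CPM, and at 13.2 CPM in cattle 3 without the deepest barcode. MAJIN, which anchors telomeres in the nuclear envelope, was at 34.2, 10.1 and 4.20 CPM.

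The members carried genes of undifferentiated spermatogonia beside the meiotic genes. Of 16 such genes 14 were higher than in remaining barcodes and 1, THY1, lower. Other germ barcodes carried these genes too, so they are not particular to members. The list summed to 1974 ± 407 CPM in members and 1574 ± 584 CPM in other germ barcodes. Gonocyte genes summed to 144.1 ± 28.5 and 110.9 ± 41.3 CPM. UCHL1, a ubiquitin hydrolase abundant in spermatogonia, was at 1847, 894.6 and 1031 CPM in members and 64.1, 48.1 and 63.3 CPM in remaining barcodes (log2 fold change 3.22 ± 0.29, edgeR adjusted p = 2.37e-05). ZBTB16, a transcription factor that keeps stem cells undifferentiated, was at 171.0, 162.7 and 214.7 CPM (log2 fold change 1.89 ± 0.31). UTF1 was at 79.8, 69.0 and 47.5 CPM (log2 fold change 6.61 ± 0.42), and GFRA1 and RET, the receptor for the growth factor GDNF, at 22.8, 18.4 and 24.4 CPM and at 11.4, 25.7 and 13.9 CPM. NANOS2 had 0 UMIs in members. Gonocyte genes were higher in 4 of 6 cases, among them POU5F1 at 0, 13.8 and 8.65 CPM and LIN28B at 22.8, 11.03 and 14.2 CPM. Of differentiating spermatogonia genes 3 of 8 were higher and 1, CCND2, lower, though not with library size alone. These counts lie near the 22.2% and 26.1% of all genes, and the list median of -0.12 lies near that of all genes, -0.20. CCND2 was at 102.6, 79.1 and 71.1 CPM in members and 102.0, 115.3 and 98.2 CPM in remaining barcodes. KIT, the receptor on differentiating spermatogonia, was at 0, 51.5 and 55.6 CPM against 37.2, 5.22 and 15.3 CPM, and was not called (adjusted p = 0.792). The direction for KIT was not shared, with cattle 1 lower and cattle 2 and 3 higher in members. The cattle 1 direction is weak, since a count of 0 there allows up to 34.2 CPM, close to the 37.2 CPM of remaining barcodes.

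The lists for later stages gave a mixed picture. Of 15 genes of pachytene and later spermatocytes 13 were higher, 12 without the deepest barcode. LY6K, a membrane protein of the germ line, was at 136.8, 164.6 and 141.8 CPM (log2 fold change 5.82 ± 0.32), and TEX101, its partner at the surface, at 102.6, 26.7 and 22.0 CPM (log2 fold change 5.30 ± 0.75). CCNA1, the cyclin of late spermatocytes, was at 0, 17.5 and 30.2 CPM. Of the spermatid genes, 8 of 16 had 0 UMIs in members, PRM1 and TNP2 among them, and 5 could be tested. Of these 3 were higher, and without the deepest barcode 1 was: SPACA1, an acrosome membrane protein, at 22.8, 40.5 and 29.6 CPM. ACR was found in 1 member, the deepest barcode.

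The piRNA pathway and germ cell RNA regulators were higher in 17 of 18 and 7 of 7 cases. FKBP6, a co-chaperone of piRNA loading, was at 342.0, 305.3 and 274.3 CPM against 4.35 ± 1.75 CPM (log2 fold change 5.07 ± 0.34), and GTSF1, which assists PIWI proteins, at 262.2, 203.2 and 191.4 CPM (log2 fold change 4.71 ± 0.56). BOLL, a relative of DAZL, was at 45.6, 41.4 and 47.7 CPM (log2 fold change 6.21 ± 0.49) and DDX43 at 102.6, 79.1 and 65.5 CPM. Cell division genes were higher in part, with 10 of 19 S phase genes and 12 of 19 G2 and M phase genes called, beside 22.2% of all genes. With library size alone 17 and 18 were called, where 6116 of all 14207 genes were higher. In the paired fit 15 and 14 were called, where 4190 of all 14207 genes were higher. MCM7 was at 535.8, 294.2 and 314.4 CPM (log2 fold change 1.79 ± 0.27) and CENPF at 171.0, 142.5 and 227.1 CPM (log2 fold change 1.80 ± 0.30), while TOP2A was not called, at 11.4, 16.6 and 32.2 CPM against 11.3 ± 0.82 CPM. Of mitotic cohesin genes 2 of 9 were higher, no more than the 22.2% of all genes tested, SMC3 at 250.8, 618.8 and 520.2 CPM and WAPL at 57.0, 169.2 and 139.5 CPM. SMC3 is shared by the mitotic and the meiotic cohesin. In the paired fit 2 were higher and 4 lower. Of DNA methylation genes UHRF1 and DNMT3A were higher and TET1 and TET2 lower, of 6 tested, where 22.2% of all genes were higher and 26.1% lower, and TET2 was not called with library size alone.

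**Figure D4:**
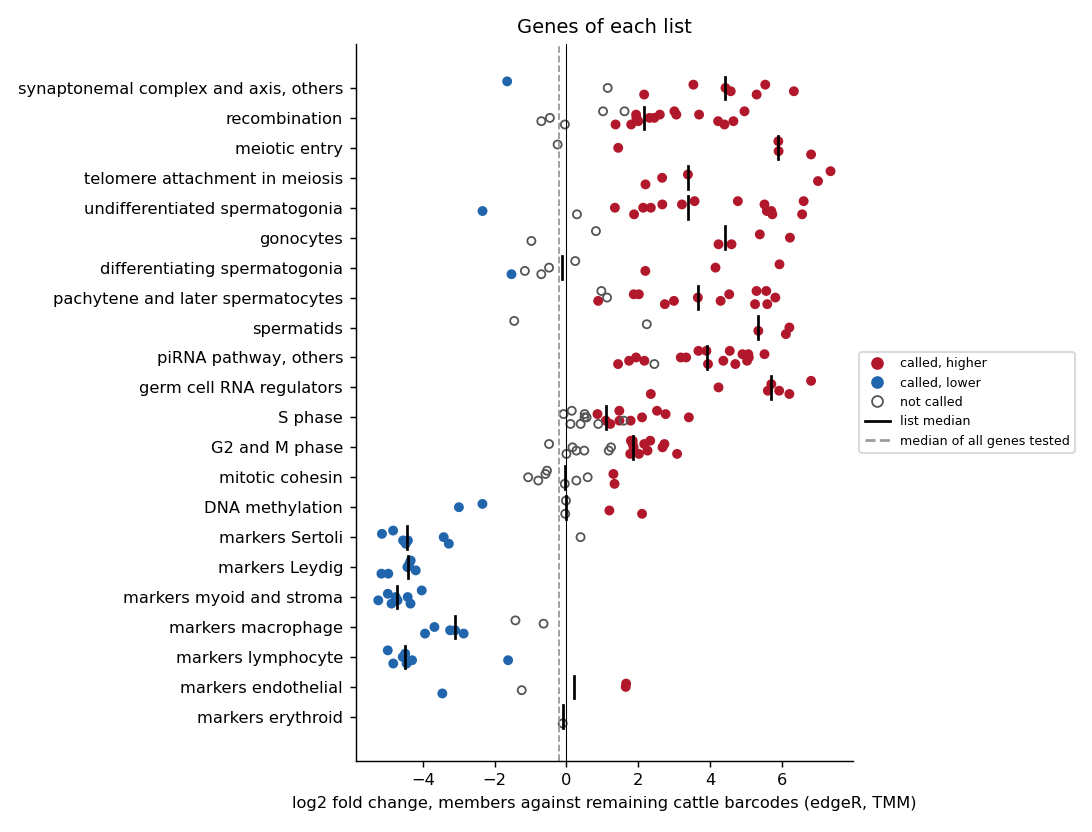
Log2 fold change of each gene of the 22 lists outside the rule in members against remaining cattle barcodes, with filled symbols for an edgeR adjusted p under 0.05, open symbols for genes not called, a bar for the list median and a dashed line for the median of all 14207 genes, -0.20. The lists of meiosis lie to the right, with medians from 2.16 for recombination to 5.90 for meiotic entry, the list for differentiating spermatogonia lies near the dashed line with a median of -0.12, and the Sertoli, Leydig, stromal and lymphocyte markers lie to the left.

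Markers of other testis cells were lower in members for 6 of 6 Leydig, 8 of 8 myoid and stromal, 7 of 8 Sertoli, 7 of 7 lymphocyte and 5 of 7 macrophage genes, or 6 of 7 without the deepest barcode. PTPRC, 1 of the lymphocyte genes, was level among barcodes over the lower quartile of member depth, at a log2 fold change of 0.019, and was not called with library size alone, nor was DHH of the Sertoli genes. INSL3, the Leydig cell hormone and the marker with most UMIs, was at 6555, 388.0 and 874.7 CPM in members and 51119, 5637 and 8364 CPM in remaining barcodes. The Leydig markers summed to 6954, 457.0 and 926.1 CPM in members and to 52998, 6633 and 8903 CPM in remaining barcodes. In droplets with at most 50 UMIs, which hold cell-free RNA, they summed to 53214 CPM, 1 value for all 3 animals. Of the Sertoli markers DHH and INHBB had 0 UMIs in members, and CLU, with the most UMIs, was at 504.8 ± 155.5 CPM. Of 4 endothelial markers VWF and TEK were called higher and CLDN5 lower, beside 22.2% and 26.1% of all genes, and their sum was 30.7 ± 6.92 CPM in members and 30.3 ± 16.1 CPM in remaining barcodes. In 234 of 390 members at least 3 markers of 1 somatic type had a UMI, 14, 49 and 171 by animal, against 80 of 163 other germ barcodes. Cattle 3, with the highest number, was the deepest library. No doublet caller was run, and the part of doublets and of cell-free RNA in these UMIs was not tested.

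Outside the lists, the 12 largest rises among genes of at least 50 CPM included CT47B1, a cancer-testis antigen gene, at 421.8, 670.3 and 508.9 CPM against 3.08 ± 0.593 CPM (log2 fold change 6.37 ± 0.35, edgeR adjusted p = 1.04e-05). C3H1orf146, the cattle name of the SPO16 gene that acts in synapsis and crossing over, was at 216.6, 363.2 and 332.5 CPM (log2 fold change 6.20 ± 0.37). PSMA8, the proteasome subunit of spermatocytes, was at 91.2, 93.8 and 102.5 CPM (log2 fold change 6.08 ± 0.40). CCDC73, ANHX, IGSF21, THBS4, CCDC42, ADAD1 and INA rose by log2 fold changes of 6.02 to 6.74. CETN1 and C10H11ORF46 also met the rule for naming, but without the deepest barcode CETN1 was not called (log2 fold change 1.62, edgeR adjusted p = 0.168) and C10H11ORF46 fell from a log2 fold change of 6.37 to 4.55. The 12 largest decreases were TMEM119, COL4A4, BoLA, TGFB1I1, MFAP4, GSTA2, GLRX, OTOS, OLFML1, OGN, QPRT and DPT, with log2 fold changes from -6.06 to -5.25. COL4A4, a basement membrane collagen chain, was at 0, 5.52 and 4.98 CPM in members and 118.9, 160.2 and 171.1 CPM in remaining barcodes, and OGN, a matrix proteoglycan, at 22.8, 34.0 and 42.7 CPM against 234.6, 982.1 and 958.4 CPM. BoLA and GSTA2 belong to families of near-identical copies, and their counts are uncertain.

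STRA8 had a UMI in 2 of 20, 61 of 156 and 76 of 214 members, and in cattle 2 and 3, without the deepest barcode, members with and without it are set side by side, as values with no test. Lack of a UMI does not show lack of expression. The gene also had a UMI in 484 of 17951 remaining barcodes and was at 15.9 CPM in droplets with at most 50 UMIs, and the part of cell-free RNA in these UMIs was not tested. Thinned to 2000 UMIs, and over the 3 animals together, 11.2% of members and 13.6% of other germ barcodes had a STRA8 UMI. The animals made up different parts of these classes. Over all members, those with a STRA8 UMI were deeper, at a median of 7969 against 6788 UMIs in cattle 2 and 20550 against 15705.5 in cattle 3. Of 107 list genes with at least 30 UMIs in each of the 2 animals, 75 had the same direction in both. In 11 genes the level with STRA8 was over 1.5 times that without it in both animals. MORC1, a transposon silencing gene, was at 87.9 against 35.4 CPM in cattle 2 and 94.2 against 27.7 CPM in cattle 3. PIWIL4, a nuclear PIWI protein, was at 147.9 against 58.0 CPM and at 153.4 against 57.7 CPM, and SPOCD1, which acts with it in DNA methylation of transposons, at 105.0 against 45.1 CPM and 154.7 against 54.8 CPM. FKBP6 was at 450.0 against 196.5 CPM and 401.0 against 177.9 CPM. The other 7 were SPAG6, TSPAN33, LDHC, TBPL1, TDRD6, SPACA1 and CENPE. In 4 genes the level with STRA8 was lower by more than the same factor in both animals. NANOS3, an RNA-binding protein of undifferentiated germ cells, was at 32.1 against 72.5 CPM in cattle 2 and 29.9 against 59.1 CPM in cattle 3. ZBTB16 was at 117.9 against 196.5 CPM and 145.6 against 283.7 CPM, and CLSPN and SMC1A were the others. NANOS3 and ZBTB16 are on the list of undifferentiated spermatogonia, as are MORC1, PIWIL4 and TSPAN33, which were higher. That list thus went both ways. SYCP1 had no common direction, at 233.6 against 286.7 CPM in cattle 2 and 295.1 against 231.7 CPM in cattle 3. SMC1B was lower with STRA8 in both, at 199.3 against 291.5 CPM and 185.2 against 232.7 CPM. GTSF1, of the piRNA list, was also lower in both, at 190.7 against 212.6 CPM and 139.7 against 173.1 CPM. MAEL, a germ cell gene of the rule, was at 278.6 against 378.5 CPM and 307.4 against 411.0 CPM. SYCP1, SMC1B and MAEL are rule genes, and members with a STRA8 UMI were deeper. Their levels here follow in part from the selection, since a shallow barcode meets the rule only at a higher CPM of its genes.

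**Figure D5:**
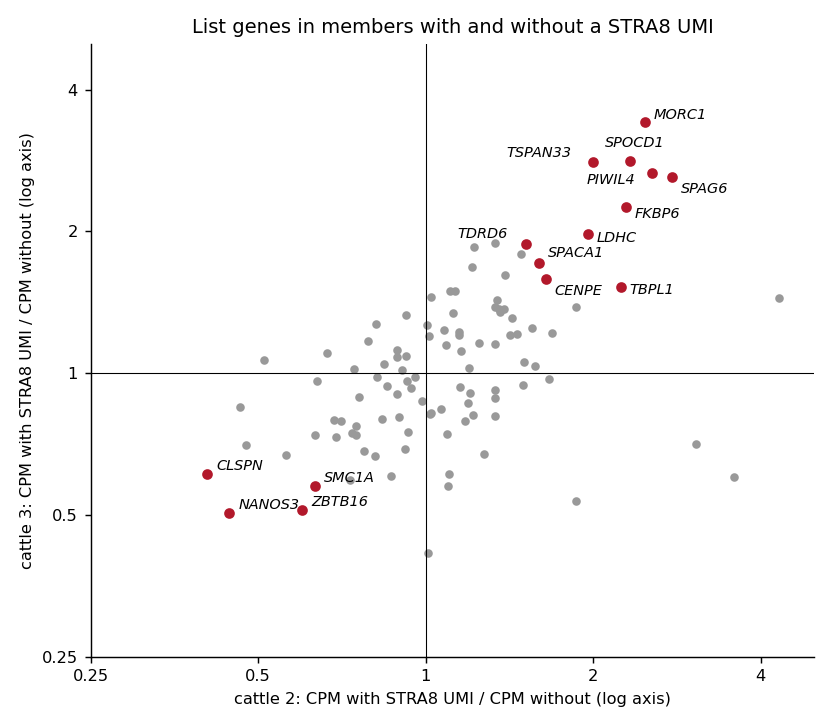
Level in members with a STRA8 UMI divided by the level in members without it, for 107 list genes, in cattle 2 (horizontal, log axis) and cattle 3 (vertical, log axis). Named genes lie over 1.5 or under 1/1.5 in both animals, with MORC1, PIWIL4 and SPOCD1 at the upper right and NANOS3, ZBTB16, CLSPN and SMC1A at the lower left.

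The same rule without DAZL, which is not named in the pig gene table used here, chose 26, 118 and 342 barcodes in testes of 3 mixed breed pigs aged 3 months. The rule set the germ barcodes apart less sharply in pig. Among pig barcodes that did not meet the germ cell condition, 134 of 3166, 55 of 3764 and 256 of 1848 had UMIs of at least 2 meiotic genes. In cattle 15 of 17951 did. The chosen pig barcodes are thus not shown to be the same class of cells, and the reason was not tested. Species, age and depth differ, so values are set side by side with no test. SMC1B, STAG3 and DMC1 are rule genes in both species, so their levels follow in part from the selection. SMC1B was at 258.9 ± 123.7 CPM in the pig barcodes and 259.6 ± 56.2 CPM in cattle members. STAG3 was at 7.49 ± 1.77 and 94.6 ± 28.2 CPM, and TEX11, an X-linked gene of crossing over, at 0, 0.457 and 1.92 CPM in the pigs and 79.4 ± 20.3 CPM in cattle. DMC1 was at 19.0 ± 6.60 CPM in pig and 5.47 ± 6.04 CPM in cattle. TEX101 spread over 433.8, 13.7 and 108.5 CPM in the pigs.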

How the data were processed

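Testicular cells of 3 cattle were profiled with 10x Genomics v2 chemistry on 1 sequencing lane. Raw UMI counts, made by the authors with Cell Ranger 2.1.0 and, by their processing notes, ARS-UCD1.2, were deposited for 19994 genes and every barcode, before any selection of cells. The annotation release is not given in the sources used here, the gene table may be of an older one than that build, and list genes it does not name were not analysed here. The raw matrices were used, with no normalization by the authors.

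Counts were summed per animal over members, other germ barcodes and remaining barcodes, since cells of 1 animal are not replicates, and CPM were computed from these sums. The labels tell the libraries apart by animal tags, and p-values measure the spread between these 3. The quasi-likelihood test of edgeR 4.0.16 (R 4.3.3) was applied with TMM and Benjamini-Hochberg adjustment at 0.05 to genes reaching 10 counts in the 6 sums together, leaving out the 16 rule genes. DESeq2 1.42.0 was an alternative. The tests were tried on simulated data, and the outcome of that trial is not given here. Doublets were not called. Barcodes with at least 3 markers of 1 somatic cell type were left out as an alternative. Shares used exact 95% binomial intervals in scipy 1.17.1, and thinning used 1 random draw.

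The members and the 24 gene lists were chosen with earlier results of these data known. The comparison with remaining barcodes, the settings without the deepest barcode and the STRA8 division were added after the data were seen. Genes named were the rule genes, list genes of high level and, outside the lists, the 12 largest changes in each direction among genes called, of the same direction in 3 of 3 animals and of at least 50 CPM in the higher group. Genes named beyond this rule, such as those not called, those of the paired fit, of the deepest barcode and of the STRA8 division, were chosen after their values were seen. Coordinates and sequences are not given here.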

Additional observations from a re-analysis of the deposited data

How the results depend on the processing

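Members against other germ barcodes gave 0 genes without a block. The animal as a replicate block gave 18 higher and 170 lower, the block without the deepest barcode 0 and 181, and the block in the middle 50% of member depth 0 and 10. Without a block there were 25 and 112 with a minimum of 1 count, 31 and 236 against germ barcodes with 0 meiotic genes, 0 and 34 in the middle 50% of member depth, with or without the deepest barcode, and 0 and 2 without barcodes carrying somatic markers. Leaving out 1 animal gave 0 to 12 higher and 0 to 40 lower, with 12 and 40 without cattle 2. Library size alone, DESeq2, a minimum of 50 counts, at least 3 meiotic genes and leaving out the deepest barcode gave 0. Members against remaining barcodes gave 3157 higher and 3704 lower, 6116 and 1810 with library size alone, 1905 higher without barcodes carrying somatic markers, and 1281 to 4077 higher and 1958 to 4369 lower without 1 animal; the paired fit changed neither count by over 1.5 times. The left-out gene was higher in 3 of 3 animals for 1 gene, for 3 in the middle 50% of depth and for 0 without somatic markers. The last count decides nothing, since cattle 1 kept 6 members with 18354 UMIs there. The member share was 16.9% after thinning, against 60.2%.

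Reversed were CCDC155, at a log2 fold change of -4.24 without barcodes carrying somatic markers, and PTPRC, at 0.019 among barcodes over the lower quartile of member depth. The cause was not tested. Cattle 1, with 87714 member UMIs, limits what weak genes can show.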
